A study of Brassica napus with 6 samples.

Results

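Tail-to-tail overlapping gene pairs were examined in the hybrid HZ62 of Brassica napus (oilseed rape), an allotetraploid with an A and a C subgenome. A member is a pair of neighbouring genes of the count table in which the first gene lies on the plus strand and the second on the minus strand, the second starts at or before the end of the first, and neither lies wholly inside the other. The rule used positions and strands and no expression value. It found 3167 pairs among 65277 adjacent gene pairs. Their 6334 genes made up 9.67% of the 65535 listed genes, and no gene belonged to more than 1 pair.

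RNA sequencing covered 3 tissues with 2 libraries each, made from polyadenylated RNA. Seedlings were 2 weeks old, flower buds were under 2 mm, and siliques, the seed pods, were 3 to 5 cm long. All plants carried the HZ62 genotype, labelled WT, and grew at 22 °C in the 16 h light period and at 18 °C in the 8 h dark period. The parents of HZ62, which the study design also names, were not analysed here. The gene identifiers could not be matched to gene names (0 of 65535), so the tissues could not be checked against marker genes and most pairs are named by position. No gene of a pair is therefore given a function.

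Genes in tail-to-tail orientation are transcribed toward each other, so their 3′ ends meet. Where the transcribed regions overlap, the RNAs carry stretches complementary to each other and are known as cis natural antisense transcripts. In Arabidopsis thaliana, a relative of oilseed rape, such pairs have been described as a source of small interfering RNAs. In a library that does not keep the strand, a read from the overlap could have come from either gene.

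Depth in the count table ran from 2538852 reads in seedling library 2 to 15448095 in seedling library 1, and the other 4 libraries held 6689132 to 8111828. The labels do not say whether both libraries of a tissue stem from different plants. The p-values thus measure no more than the spread of these samples, and that spread may be technical. In bulk tissue, fewer cells of a type and less RNA per cell cannot be told apart. Positions are those of the count table, counted from 1, and its genome build is not given in the sources used here.

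Tail-to-tail orientation accounted for most overlaps between neighbours. Of 3899 adjacent pairs that overlapped without nesting, 3167 (81.2%) were tail-to-tail, 680 (17.4%) were head-to-head and 52 (1.33%) were on the same strand. A further 151 convergent overlaps joined genes that were not adjacent in the table and were not members. In 324 of the member pairs, a gene also overlapped a gene model other than its partner.

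The overlap ran from 1 to 14421 bases with a median of 789 and quartiles of 361 and 1402.5. It covered a median of 38.6% of the shorter gene. The most filled length class was over 500 and up to 1000 bases with 862 pairs (27.2%), followed by over 1000 and up to 2000 bases with 857. Overlaps of 1 to 100 bases were found in 314 pairs, 7 of which shared a single base, and 384 pairs shared over 2000 bases. In head-to-head overlapping pairs the median overlap was shorter, at 323 bases. Member genes were also long. Their median span, introns included, was 3001 bases, against 1976 over all listed genes, 2091 in tail-to-tail pairs 0 to 500 bases apart and 2382 in head-to-head overlapping pairs.

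**Figure D1:**
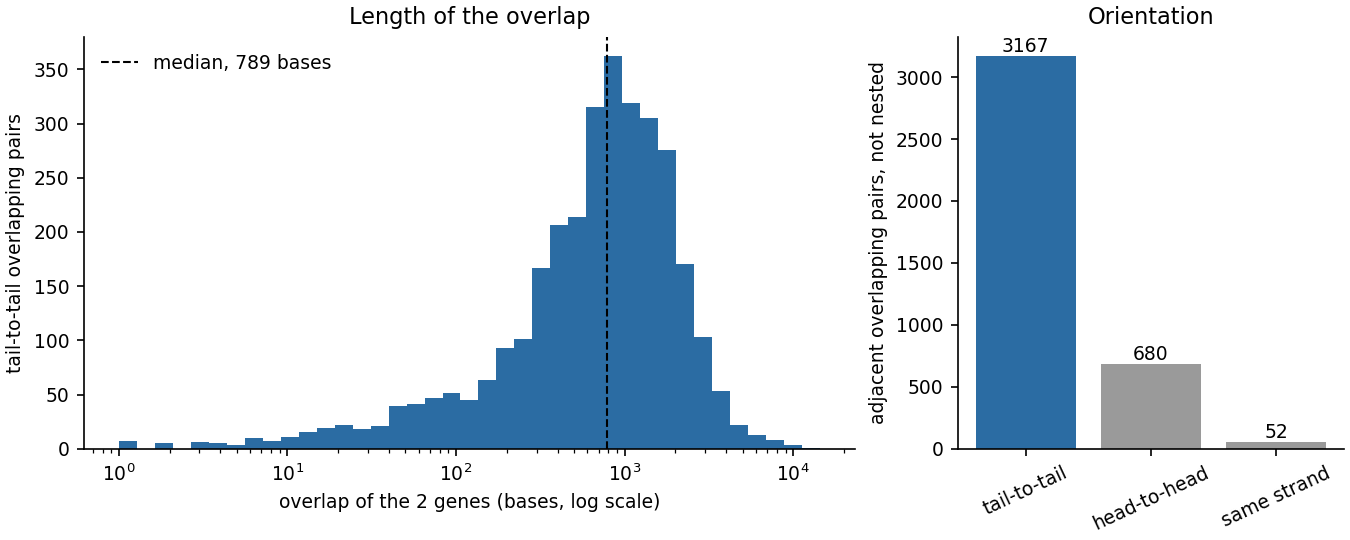
The left panel counts the 3167 tail-to-tail overlapping pairs by overlap length in bases on a log axis, with the median of 789 bases as a dashed line. The right panel counts adjacent overlapping, non-nested pairs by orientation, and the tail-to-tail bar stands at 3167 against 680 and 52.

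Members took a larger share of neighbouring genes on A than on C chromosomes. They were 2339 of 44363 adjacent pairs on A1 to A10 (5.27%) and 818 of 20542 on C1 to C3 (3.98%), with 10 more on unplaced sequences. The table reached only these 3 C chromosomes and ended inside C3. The share per chromosome was highest on A6 (6.47%) and A10 (6.20%) and lowest on C2 (3.32%). Within the A chromosomes the lowest share was 4.41% on A2, and within C the highest was 4.47% on C3, so the ranges overlapped. Of all tail-to-tail neighbours, 19.99% overlapped on A and 15.7% on C. These shares describe the gene models and were not tested.

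The table held no read for a gene that lay wholly inside a neighbouring model. All 2192 such genes stood at 0 in the 6 libraries, 2006 of them on the strand opposite to their host. Of the 2005 hosts of those opposite-strand genes, 1854 had reads. All 2496 genes of the table with no base outside other gene models were likewise at 0. Whether reads in an overlap were dropped or assigned by strand is not given in the sources used here.

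Members showed a graded form of the same pattern. Where the partner covered up to 10% of a gene, 91.4% of 1366 genes had at least 1 read, and 93.4% of 1595 genes did at over 10% to 25%. At over 75% to 90% the share was 73.1% of 294 genes. At over 90% it was 16.7% of 293 genes, and 8 of these (2.73%) passed the filter on low counts. By bases left outside every other model, the share with a read was 8.81% of 159 genes at 1 to 50 bases, 52.0% of 123 at 201 to 300, 82.7% of 768 over 500 and up to 1000 and 94.96% of 4838 above 1000.

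Short genes without any overlap also often had no read. Among genes that overlapped no other model, 27.3% of 1111 with a span of 201 to 300 bases had a read, and 80.9% of 39929 above 1000 bases did. The parts of length and of counting in the gradient among members were not separated. Values below describe each gene as counted. Levels are compared between genes as CPM (reads of a gene scaled to the reads of its library) per kb of the gene outside other models. Those bases include introns, and no correction for intron length was made. CPM limits, and the ranks used to name genes and pairs, take no account of length.

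**Figure D2:**
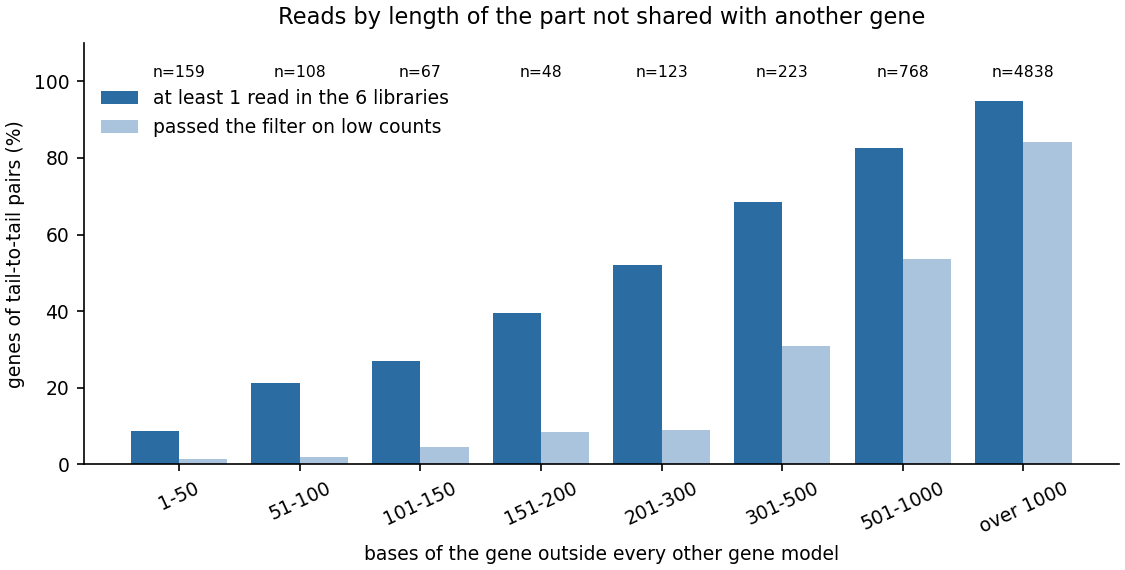
Bars give the percentage of genes of tail-to-tail overlapping pairs with at least 1 read in the 6 libraries (dark) and that passed the filter on low counts (light), by bases of the gene outside every other gene model. The dark bars climb from 8.81% at 1 to 50 bases to 94.96% above 1000 bases.

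A larger share of the genes of tail-to-tail overlapping pairs had reads than of listed genes in general. At least 1 read was found for 5520 of 6334 (87.1%), against 71.5% of all listed genes, 81.4% of genes in tail-to-tail pairs 0 to 500 bases apart and 72.8% in head-to-head overlapping pairs. The filter on low counts was passed by 4568 members (72.1%), against 52.3% of all listed genes and 60.8% of genes in tail-to-tail pairs 0 to 500 bases apart. Among genes that passed, the median level was 4.26 CPM per kb outside other models in seedlings, 4.95 in flower buds and 4.67 in siliques. The same medians over all genes that passed were 3.99, 4.21 and 4.11. Members were longer, and the part of length in their detection was not tested.

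In most pairs at least 1 partner was active in every tissue. Both genes stood at 1 CPM or more in all 6 libraries in 1076 pairs (34.0%), against 17.6% of all adjacent pairs and 23.8% of tail-to-tail pairs 0 to 500 bases apart. In another 1517 pairs (47.9%) a single gene did so, against 42.2% of all adjacent pairs and 44.7% of tail-to-tail pairs 0 to 500 bases apart. In 422 of the 1517 (27.8%) its partner had no read in any library, against 40.6% and 23.9% in the same classes. All adjacent pairs here include nested pairs, whose inner gene had no read in any library. Both genes passed the filter in 1692 pairs (53.4%), 1 gene in 1184 and neither in 291. Among the 1184, the gene that did not pass was the shorter of the pair in 962 and was covered over 75% by its partner in 325.

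Some pairs held a gene read in a single tissue. In 40 pairs (1.26%, against 1.61% of all adjacent pairs and 1.99% of tail-to-tail pairs 0 to 500 bases apart) a gene stood at 1 CPM or more in both flower bud libraries and had no read in any other, and the partner stood at 1 CPM or more in all 6 libraries in 27 of them (67.5%). The latter share was 36.4% of 1050 such cases among all adjacent pairs and 39.1% of 64 among tail-to-tail pairs 0 to 500 bases apart. For silique the counts were 21 pairs (0.663%, against 1.42% and 1.37% in those classes) with 12 such partners, and for seedling 8 pairs (0.253%, against 0.479% and 0.435%) with 5 such partners. Genes at 1 CPM or more in all 6 libraries were also more common among members in general. Both genes of a pair stood there in 34.0% of member pairs, against 17.6% and 23.8% in those classes. The part of this in the shares of partners was not tested. The differences between classes were not tested. Both genes were confined to flower bud in 2 pairs, and in no pair were both confined to seedling or both to silique. Over all 65277 adjacent pairs, both were confined to flower bud in 21, to seedling in 3 and to silique in 26. The counts among members are too small to show a difference from these.

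Within a pair, levels per kb outside other models were unequal. The median ratio of the higher to the lower gene was 4.15 in seedlings, 2.99 in flower buds and 3.50 in siliques, among pairs with both genes past the filter and a read of either gene in the tissue. The ratio exceeded 10, or the lower gene stood at 0, in 483 of 1690 pairs in seedlings (28.6%), 361 of 1692 in flower buds (21.3%) and 446 of 1690 in siliques (26.4%). The genes lay within 2-fold of each other in 458, 537 and 505 pairs. Ratios of other adjacent pairs are not given here, so these values do not show whether members differ from them. Neither strand prevailed, as the plus-strand gene was the higher in 51.8%, 51.6% and 51.8% of pairs. The same gene was the higher in all 6 libraries in 1005 of 1692 pairs (59.4%), near the 59.8% of 20211 adjacent pairs with both genes past the filter.

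Ranked by the mean CPM of the lower gene, without regard to length, the most abundant pair on both sides lay on chromosome A1. It spanned 2009972 to 2028426 with an overlap of 1213 bases. Its plus-strand gene stood at 198 and 165 CPM in the seedling libraries, 99.3 and 104 in flower buds and 174 and 173 in siliques. Its minus-strand gene stood at 101 and 71.8 CPM, 131 and 118, and 134 and 144 in the same order. Every library thus held both transcripts at high levels, and the flower bud libraries had the lowest values of the plus-strand gene. The within-pair log2 ratio of plus to minus gene was lower in flower buds than in seedlings by a change of -1.37 (SE 0.20, limma adjusted p = 0.00153), although neither gene alone passed the fold threshold.

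A pair on A3 at 20166232 to 20173067, with an overlap of 504 bases, was also abundant on both sides. The plus-strand gene of this pair stood at 98.5 and 87.4 CPM in seedlings, 61.4 and 66.7 in flower buds and 116 and 113 in siliques. Its minus-strand gene stood at 111 and 99.4, 123 and 127, and 156 and 154 CPM. No tissue lacked either transcript, and no comparison moved either gene by a log2 change of 1.

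The longest and the shortest overlap gave contrasting pictures. The overlap of 14421 bases lay in the A1 pair at 2545146 to 2571695. Its plus-strand gene had 4.09 and 0 CPM in seedlings, 6.43 and 5.29 in flower buds and 1.44 and 2.18 in siliques, and its partner stayed at or below 0.239 CPM in every library. Another gene model overlaps this pair. The first pair in the table that shared a single base, on A1 at 1435418 to 1442600, had both genes expressed throughout. Its plus-strand gene stood at 22.3 and 22.1, 17.4 and 19.4, and 15.6 and 18.3 CPM, and its minus-strand gene at 105 and 62.3, 228 and 201, and 179 and 188 CPM. The seedling libraries of the minus-strand gene lay below all others, and it rose in flower buds by a log2 fold change of 1.33 (edgeR adjusted p = 0.00122).

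Differences between tissues were tested with edgeR on all genes, and a gene counted as called when its adjusted p (Benjamini-Hochberg) was under 0.05 and its log2 fold change was 1 or more in either direction. Between flower bud and seedling, 988 of 4568 tested member genes were called higher in flower buds (21.6%) and 839 lower (18.4%). Over all genes tested, 21.1% were called higher and 21.8% lower. Between silique and seedling, 707 members were higher (15.5%) and 661 lower (14.5%), against 16.2% and 18.0% of all genes. Between silique and flower bud, 494 were higher (10.8%) and 499 lower (10.9%), against 14.5% and 13.0%. In either direction, 40%, 29.9% and 21.7% of members were called in these comparisons, against 43.0%, 34.2% and 27.5% of all genes, and the differences in share were not tested. The comparisons share their libraries and are not independent.

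Without flower bud replicate 1 or 2, 285 or 281 members were lower in siliques than in flower buds. Without silique replicate 1 or 2, 304 or 319 were higher and 301 or 328 lower.

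Called changes were of a similar size in each comparison. The median log2 fold change of members called higher was 1.70 between flower bud and seedling, 1.69 between silique and seedling and 1.72 between silique and flower bud, and 1.70, 1.68 and 1.71 with genes that lacked a read on 1 side set at their bound. For members called lower the medians were -2.04, -1.80 and -1.93, and -2.02, -1.78 and -1.93 with bounds. Called changes of at least 8-fold, counted with bounds, were found for 194 members higher and 231 lower in flower buds than in seedlings (4.25% and 5.06% of tested members, against 5.63% and 7.61% of all tested genes). Between silique and seedling they numbered 145 and 134 (3.17% and 2.93%, against 4.6% and 5.12%), and between silique and flower bud 110 and 141 (2.41% and 3.09%, against 4.69% in either direction). The median over all tested members was 0.24 between flower bud and seedling, against 0.12 over all genes. No comparison called 2212 members (48.4%), against 43.5% of all tested genes.

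Members called higher in 1 tissue than in both others made up a smaller share than in the background. They numbered 492 for seedling (10.8%, against 13.4% of all tested genes), 332 for flower bud (7.27% against 8.34%) and 175 for silique (3.83% against 5.6%). In 34 pairs both genes were highest in the same tissue, which was seedling in 21, flower bud in 11 and silique in 2. They were 2.01% of the 1692 pairs with both genes tested, against 4.05% of all adjacent pairs with both genes tested. In 49 pairs (2.90%, against 3.91%) the genes were highest in different tissues, most often seedling and flower bud with 30 pairs.

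Calls were then counted in both partners of a pair. Between flower bud and seedling, both genes were called in 277 of 1692 pairs, in the same direction in 143 (86 both higher and 57 both lower) and in opposite directions in 134. A single gene was called in 786 pairs (46.5%, against 47.7% of all adjacent pairs with both genes tested) and neither in 629 (37.2%, against 33.6%). Same-direction pairs were 8.45% of pairs, against 11.0% of all adjacent pairs with both genes tested, and opposite pairs were 7.92% against 7.72%. Without flower bud replicate 1 the opposite pairs numbered 89, and without flower bud replicate 2 the same-direction pairs numbered 95.

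Between silique and seedling, 89 pairs moved in the same direction (5.26%, against 7.92%) and 71 in opposite directions (4.20%, against 4.51%). Between silique and flower bud, 35 pairs moved in the same direction (2.07%, against 4.93%) and 38 in opposite directions (2.25%, against 3.0%). Without silique replicate 1 or 2, the silique and seedling counts fell to 50 or 57 in the same direction and 40 or 35 in opposite directions. For silique against flower bud they were 20 and 22 without flower bud replicate 1, 17 and 11 without flower bud replicate 2, 16 and 12 without silique replicate 1, and 17 and 19 without silique replicate 2.

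Of pairs with both genes called, the share in the same direction was 51.6%, 55.6% and 47.9% in the 3 comparisons. It was 58.7%, 63.7% and 62.2% over all adjacent pairs, 59.0%, 57.7% and 59.3% in tail-to-tail pairs 0 to 500 bases apart, and 66.1%, 76.1% and 69.9% in same-strand pairs 0 to 500 bases apart. Tail-to-tail overlapping pairs gave the lowest of these 4 shares in each comparison. The differences between classes were not tested.

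**Figure D3:**
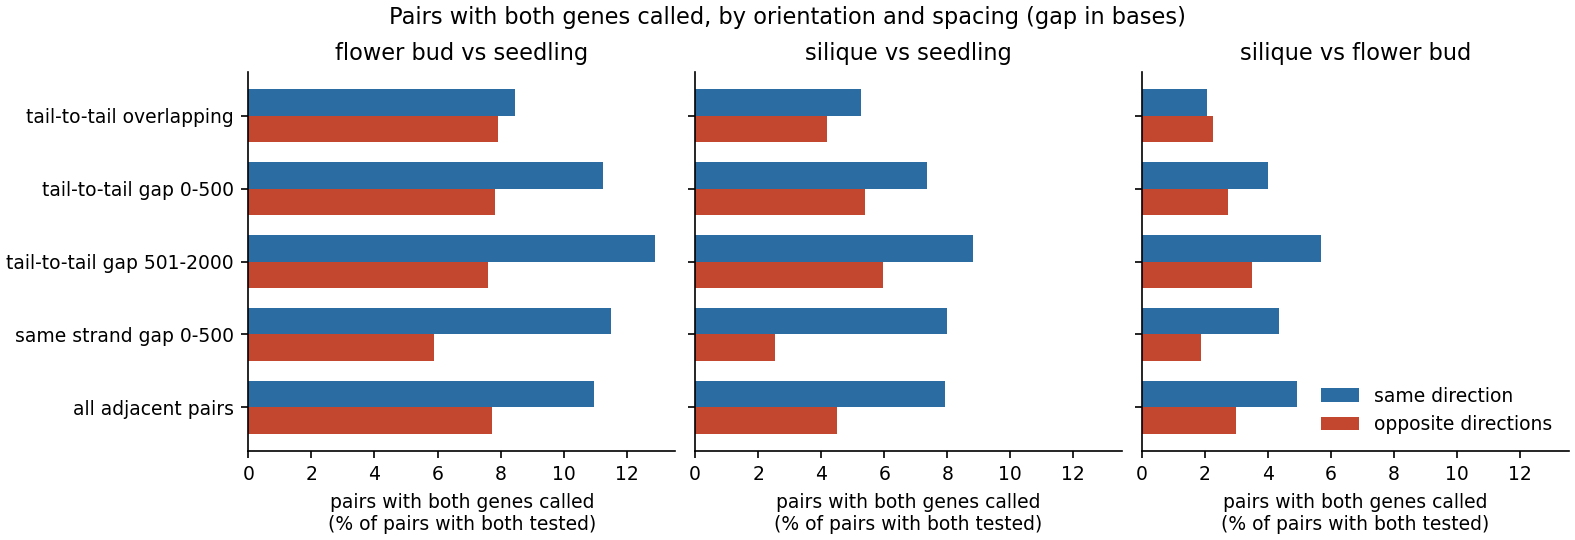
Bars give the percentage of adjacent pairs with both genes tested in which both genes were called, in the same direction (blue) or in opposite directions (red), for each pair of tissues and for classes of orientation and gap in bases. In tail-to-tail overlapping pairs the blue and red bars are close, at 8.45% and 7.92% between flower bud and seedling, while in same-strand pairs the blue bar is longer.

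The fold changes of partners showed almost no linear relation. Across the 1692 pairs, Pearson's r was 0.03 between flower bud and seedling, 0.03 between silique and seedling and 0.04 between silique and flower bud, and Spearman's rho was 0.02, 0.03 and 0.04. Over all adjacent pairs r was 0.10, 0.11 and 0.10. In same-strand pairs 0 to 500 bases apart it was 0.22, 0.26 and 0.23, and in tail-to-tail pairs at that distance 0.06, 0.13 and 0.06. Low values of r were thus not confined to overlapping pairs, and differences in r between classes were not tested. These values describe pairs that share the same 6 libraries and are not independent replicates.

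**Figure D4:**
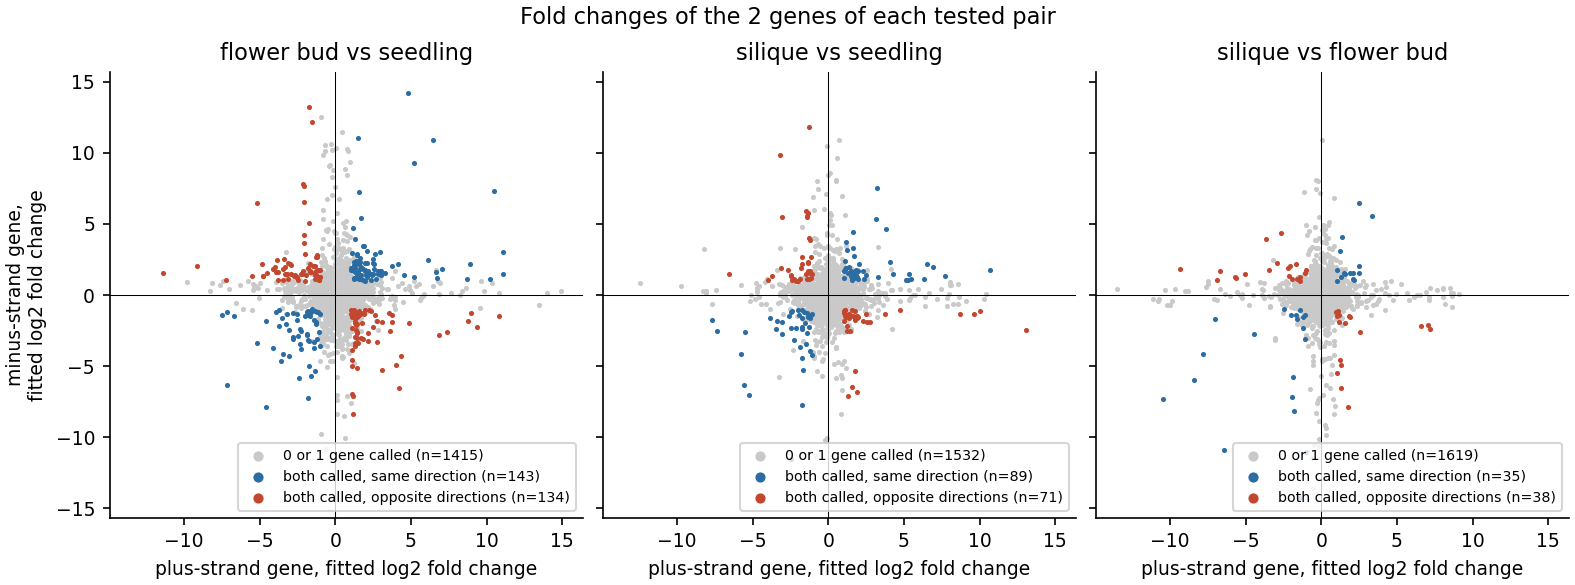
Each point is 1 of 1692 pairs with both genes tested, with the fitted log2 fold change of the plus-strand gene on the x axis and of the minus-strand gene on the y axis, and 1 panel per pair of tissues. Points fill all 4 quadrants and stretch along the axes, where 1 gene changed and its partner changed little. Far values of genes without a read in a tissue depend on the prior count.

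Partners shifted relative to each other in many pairs. A shift was called from limma on the log2 ratio of plus to minus gene, fitted over all adjacent pairs, at an adjusted p under 0.05 and an absolute change of at least 1. It was called in 809 of 1692 pairs between flower bud and seedling (47.8%, against 50% of all adjacent pairs), in 656 between silique and seedling (38.8%, against 41.1%) and in 422 between silique and flower bud (24.9%, against 30.8%). In 268 pairs (15.8%, against 15.7%), 174 pairs (10.3%, against 11.8%) and 140 pairs (8.27%, against 9.79%) the called shift also changed which gene was the higher per kb. These shares were near or below the background.

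The number of called shifts varied with the libraries in the fit. Between flower bud and seedling it was 452 or 449 without flower bud replicate 1 or 2, and between silique and seedling 287 or 285 without silique replicate 1 or 2. Between silique and flower bud it was 146 or 150 without flower bud replicate 1 or 2 and 179 or 178 without silique replicate 1 or 2. Without seedling replicate 1 or 2, which are not part of that comparison, it was 674 or 672.

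Pairs in which 1 gene was read almost only in flower buds gave strong contrasts within a pair. ZS11A08G019720 (A8, 16205985 to 16208036, plus strand), with 231 bases shared, stood at 0 reads in both seedling libraries, 452 and 492 CPM in flower buds and 0.239 and 0.58 in siliques. It was at least 2547-fold higher in flower buds than in seedlings (edgeR adjusted p = 2.95e-07). That bound, like those below, takes reads as independent. The partner of this gene stood at 5.00 and 4.02 CPM in seedlings, 4.57 and 6.91 in flower buds and 1.91 and 5.37 in siliques. The partner's tissues overlapped, and its change between flower bud and seedling was 0.28 on the log2 scale (edgeR adjusted p = 0.647).

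ZS11A07G004140 (A7, 3008793 to 3011923, minus strand) shared 1455 bases, 46.5% of its span, with its partner. It stood at 0.141 and 0 CPM in seedlings, 180 and 187 in flower buds and 0 reads in both silique libraries. Its 2 flower bud libraries lay far above the other 4, and it was at least 932-fold lower in siliques than in flower buds (edgeR adjusted p = 3.17e-07). Its partner stood at 100 and 103 CPM in seedlings, 98.9 and 110 in flower buds and 66.2 and 74.9 in siliques, a log2 change of -0.57 between silique and flower bud (edgeR adjusted p = 0.0216).

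A pair on A3 and a pair on C3 looked alike in geometry and in levels. The A3 pair at 21540309 to 21548199 shared 2622 bases, and the C3 pair at 36435645 to 36443667 shared 2648. The plus-strand gene of the A3 pair stood at 171 and 176 CPM in flower buds and had no read in the other 4 libraries. That of the C3 pair stood at 227 and 263 CPM in flower buds, at 0 in both seedling libraries and at 0 and 0.29 in siliques.

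Against seedling these genes were at least 937-fold and at least 1320-fold higher in flower buds (edgeR adjusted p = 4.75e-07 and 4.45e-07). The minus-strand gene stood at 12.04 and 14.1, 9.58 and 6.16, and 9.69 and 11.0 CPM in the A3 pair, and at 10.8 and 8.03, 11.0 and 10.6, and 8.49 and 9.14 CPM in the C3 pair. Neither minus-strand gene was called in any comparison. Sequences of the pairs were not compared, so no relation between them is claimed.

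A flower bud gene could also sit beside a partner that rose with it or fell. ZS11C01G003860 (C1, 2181230 to 2183167, minus strand), with 518 bases shared, stood at 278 and 307 CPM in flower buds and had no read in the other 4 libraries. It was at least 1578-fold higher than in seedlings (edgeR adjusted p = 4.6e-07) and at least 1486-fold lower in siliques than in flower buds (edgeR adjusted p = 6.71e-07). Its partner stood at 1.34 and 4.02 CPM in seedlings, 50.8 and 50.3 in flower buds and 21.3 and 15.8 in siliques, in 3 ranges that did not overlap. The partner rose in flower buds by a log2 fold change of 4.82 (edgeR adjusted p = 4.26e-06).

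In the C1 pair at 1174345 to 1186518, which shared 708 bases, the minus-strand gene stood at 0 reads in seedlings, 125 and 164 CPM in flower buds and 1.20 and 0.58 in siliques, at least 780-fold higher in flower buds than in seedlings (edgeR adjusted p = 4.75e-07). The plus-strand gene stood at 40.7 and 50.7, 14.2 and 12.1, and 22.1 and 23.5 CPM, highest in seedlings, and fell by 1.77 on the log2 scale in flower buds (edgeR adjusted p = 4.93e-05). The A1 pair at 1060621 to 1073255, which shared 502 bases, had the same arrangement. Its minus-strand gene stood at 0 reads in seedlings, 59.7 and 80.7 CPM in flower buds (at least 379-fold higher, edgeR adjusted p = 6.09e-06) and 0 and 0.87 in siliques, and its plus-strand gene at 97.3 and 95.4, 32.2 and 32.9, and 30.3 and 26.7 CPM. The latter fell by 1.56 on the log2 scale in flower buds (edgeR adjusted p = 2.96e-05).

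**Figure D5:**
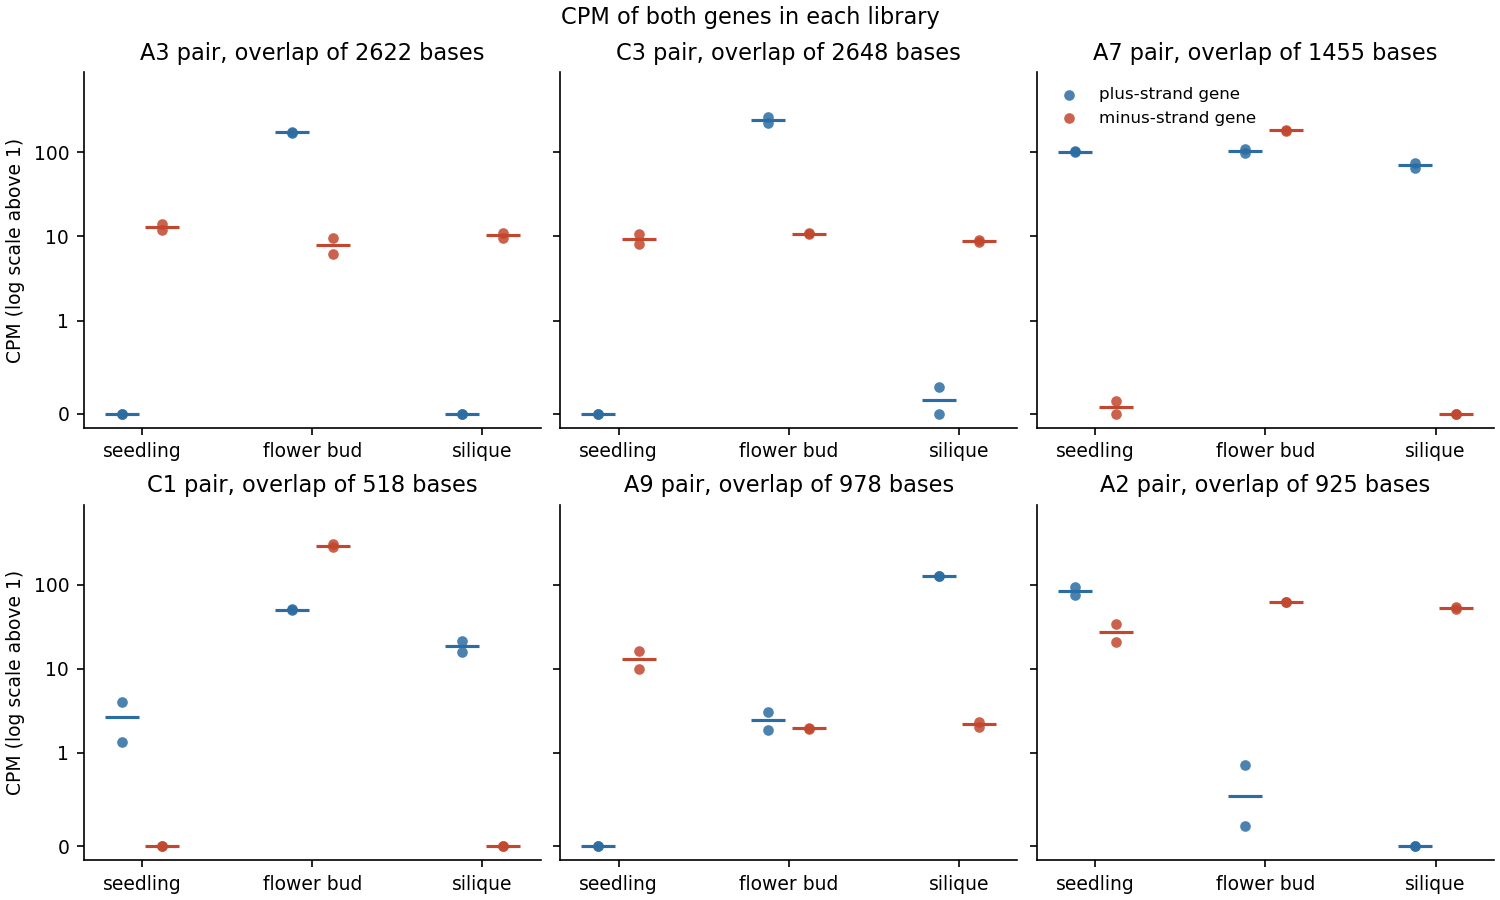
Points give CPM in each of the 6 libraries for both genes of 6 pairs (plus strand blue, minus strand red), on an axis that is linear below 1 CPM and logarithmic above, with short lines at the mean of 2 libraries. In the A3, C3 and A7 pairs 1 gene stands above 170 CPM in flower buds and near 0 elsewhere, while its partner was not called in any comparison.

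Genes that fell most from seedling to the other tissues, among members at a mean of at least 50 CPM, sat beside partners that kept their reads. ZS11A02G040220 (A2, 29983298 to 29987033, plus strand), with 925 bases shared, stood at 75.2 and 93.4 CPM in seedlings, 0.218 and 0.864 in flower buds and 0 reads in both silique libraries. It fell by 7.22 on the log2 scale in flower buds (edgeR adjusted p = 1.16e-06) and was at least 429-fold lower in siliques than in seedlings (edgeR adjusted p = 1.56e-06). Without flower bud replicate 2 the log2 change in flower buds was -8.58, with 2 reads left in that tissue, a ratio of 356 with an exact Clopper-Pearson interval of 98.2 to 2939. Its partner moved the other way, from 33.8 and 21.1 CPM in seedlings to 61.9 and 62.4 in flower buds and 51.7 and 53.7 in siliques, a log2 rise of 1.09 in flower buds (edgeR adjusted p = 0.00141).

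ZS11A01G037800 (A1, 28716266 to 28717984, minus strand), with 836 bases shared, stood at 68.4 and 102 CPM in seedlings, 0.545 and 0.648 in flower buds and 1.08 and 0.29 in siliques. It fell by 7.09 on the log2 scale in flower buds (edgeR adjusted p = 7.24e-07) and by 6.83 in siliques (edgeR adjusted p = 1.44e-06). The change in siliques was -6.24 without silique replicate 2 and -8.09 without silique replicate 1, which left 2 reads there, a ratio of 250.1 with an exact Clopper-Pearson interval of 69.1 to 2068. Its partner stood at 2.18 and 1.004, 1.96 and 4.75, and 7.66 and 6.67 CPM, highest in siliques, and rose there by 1.89 on the log2 scale against seedling (edgeR adjusted p = 0.0139). Without seedling replicate 1 the partner had 2 reads left in seedlings. The ratio was then 7.18, with an exact Clopper-Pearson interval of 1.94 to 60.1.

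The C3 pair at 23330155 to 23333650, which shared 101 bases, was among the 3 most abundant on both sides by mean CPM over the 6 libraries. Its plus-strand gene was abundant only in seedlings. The plus-strand gene of this pair stood at 294 and 342 CPM in seedlings, 7.52 and 7.88 in flower buds and 11.8 and 6.24 in siliques. Its minus-strand gene stood at 95.1 and 88.4, 136 and 124, and 90.9 and 90.2 CPM. The within-pair log2 ratio was lower than in seedlings by a change of -5.82 in flower buds (SE 0.33, limma adjusted p = 6.13e-05) and -5.15 in siliques (SE 0.33, limma adjusted p = 0.000151). Only the plus-strand gene of this pair was called.

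A member gene with no read in seedlings or flower buds could be abundant in siliques. ZS11A01G007130 (A1, 3733326 to 3734999, plus strand) stood at 656 and 595 CPM in siliques and had no read in the other 4 libraries (edgeR adjusted p = 8.34e-07 against seedling). Its partner, with 205 bases shared, also had no read in those 4 libraries, and stood at 0.359 and 0.58 CPM in siliques, too low for a test. ZS11C01G045520 (C1, 42844394 to 42857326, minus strand) stood at 0.282 and 0 CPM in seedlings, 0 and 0.216 in flower buds and 46.8 and 59.5 in siliques, and rose in siliques against flower bud (edgeR adjusted p = 1.08e-06). The ratio rested on 2 reads in flower buds and was 484, with an exact 95% Clopper-Pearson interval of 134 to 4005. That interval takes the reads as independent and covers counting error only. Both reads were in flower bud replicate 2, and without that library it was at least 161-fold higher in siliques. Its partner, which shares 357 bases with it, had no read in any library and 239 bases outside other models. A further gene model overlaps this pair.

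ZS11A09G027040 (A9, 18899104 to 18903750, plus strand), with 978 bases shared, stood at 0 reads in seedlings, 1.85 and 3.02 CPM in flower buds and 128 and 127 in siliques, in 3 ranges that did not overlap. It was at least 685-fold higher in siliques than in seedlings (edgeR adjusted p = 6.35e-07). Its partner ran the other way, at 9.86 and 16.1 CPM in seedlings, 1.96 and 1.94 in flower buds and 2.03 and 2.32 in siliques, and fell by 2.48 on the log2 scale in siliques (edgeR adjusted p = 0.000826).

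A gene mostly inside the overlap could still change. In the A10 pair at 19091896 to 19100852, which shared 3812 bases, the partner covered 86.0% of the plus-strand gene and left 621 of its bases outside. That gene stood at 0.141 and 0 CPM in seedlings, 0.218 and 0.216 in flower buds and 31.3 and 32.6 in siliques, and rose in siliques against seedling (edgeR adjusted p = 1.44e-06). The ratio rested on 2 reads in seedlings, both in replicate 1, and was 258, with an exact Clopper-Pearson interval of 71.2 to 2140. Without that library the gene was at least 21.2-fold higher in siliques. The minus-strand gene stood at 29.8 and 30.1, 17.9 and 20.5, and 19.4 and 16.0 CPM and was not called in any comparison. In the A10 pair at 14573015 to 14580993, which shared 1738 bases, the minus-strand gene stood at 0 reads in seedlings, 15.9 and 19.7 CPM in flower buds and 53.8 and 52.4 in siliques, and was at least 287-fold higher in the latter than in seedlings (edgeR adjusted p = 1.09e-06). The plus-strand gene stood at 13.0 and 13.1, 10.9 and 11.1, and 4.79 and 5.80 CPM, lowest in siliques, and fell by 1.30 on the log2 scale there against seedling (edgeR adjusted p = 0.00277).

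In the pairs named for the largest opposite changes of both partners, the shared stretch ran from 7 to 1565 bases. The A3 pair at 1466368 to 1474125, named for silique against seedling, shared 185 bases. Its plus-strand gene stood at 50.4 and 7.03 CPM in seedlings, 195 and 175 in flower buds and 224 and 231 in siliques, and its minus-strand gene at 169 and 188, 34.7 and 39.7, and 46.5 and 47.7 CPM. Seedlings did not overlap the other tissues for either gene, although the seedling libraries of the plus-strand gene differed widely from each other. The plus-strand gene rose in siliques by 2.78 on the log2 scale (edgeR adjusted p = 0.00191) and the minus-strand gene fell by 1.92 (edgeR adjusted p = 1.99e-05). The rise was 5.02 without seedling replicate 1 and 2.18 without seedling replicate 2.

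The C3 pair at 29001364 to 29008274, named for flower bud against seedling, shared 40 bases. The plus-strand gene of this pair stood at 2.25 and 0 CPM in seedlings, 32.9 and 26.8 in flower buds and 4.31 and 3.48 in siliques, and its minus-strand gene at 5.00 and 10.04, 0.218 and 0.216, and 1.32 and 0.87 CPM. The order of the tissues was reversed between the partners. The log2 changes in flower buds against seedling were 3.99 (edgeR adjusted p = 4.08e-05) and -4.89 (edgeR adjusted p = 0.000259), and the within-pair ratio changed by 9.25 on the log2 scale (SE 1.26, limma adjusted p = 0.00117). All 32 seedling reads of the plus-strand gene were in replicate 1. Without that library it had no read in seedlings and was at least 19.8-fold higher in flower buds, against 3 reads in the library that remained. The minus-strand gene had 4 reads in flower buds.

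Between silique and flower bud, the A3 pair at 8902071 to 8911568 shared 90 bases and the C3 pair at 11634384 to 11645660 shared 7. The plus-strand gene of the A3 pair stood at 0.218 and 0 CPM in flower buds and 11.01 and 12.5 in siliques, and its partner at 7.52 and 6.37 and then 1.68 and 1.31. That of the C3 pair stood at 0.218 and 0.216 CPM in flower buds and 25.6 and 37.1 in siliques, and its partner at 10.9 and 9.29 and then 3.11 and 1.45. The plus-strand genes rose in siliques (edgeR adjusted p = 0.000132 and 2.64e-06). In the A3 pair the ratio rested on 2 reads in flower buds and was 108, with an exact Clopper-Pearson interval of 29.4 to 895. Both of those 2 reads were in flower bud replicate 1, and without that library the A3 gene was at least 36.02-fold higher in siliques. In the C3 pair the log2 fold change was 7.08 and rested on 2 reads in each flower bud library. The minus-strand genes fell, with log2 fold changes of -2.20 and -2.11 (edgeR adjusted p = 0.00212 and 0.00272), and that of the C3 pair was -2.78 without silique replicate 1.

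The A9 pair at 3726266 to 3736220, named for flower bud against seedling, shared 1565 bases and overlapped another gene model. Its plus-strand gene stood at 1.06 and 1.004 CPM in seedlings and 8.50 and 5.51 in flower buds, and its partner at 9.02 and 30.6 and then 2.18 and 1.19. The 2 tissues did not overlap for either gene. The log2 changes were 2.72 (edgeR adjusted p = 0.000817) and -3.33 (edgeR adjusted p = 0.00142). The latter was -4.17 without seedling replicate 1, -2.41 without seedling replicate 2 and -3.99 without flower bud replicate 1.

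As a group, member genes took a nearly constant share of the reads. They held 12.1% and 12.5% of the reads of the count table in the seedling libraries, 12.9% and 12.8% in flower buds and 12.4% and 12.6% in siliques. Flower bud lay above the other tissues by less than 1 percentage point. The difference was 0.549 points between flower bud and seedling (two-sided exact permutation p = 0.333), 0.199 between silique and seedling (p = 0.667, exact permutation) and -0.350 between silique and flower bud (p = 0.333, exact permutation). With 2 libraries against 2 the smallest p is 0.333. The difference between silique and seedling was -0.0367 points without seedling replicate 1, 0.434 without seedling replicate 2, 0.118 without silique replicate 2 and -0.0497 without pairs that overlap another gene model. Between flower bud and seedling it was 0.314 points without seedling replicate 1 and 0.246 without those pairs. Between silique and flower bud it was -0.187 points with all recovered reads as denominator.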

How the data were processed

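Per the file headers, whole-number read counts per gene, with positions and strands, make up the deposited count table. A deposited second table gives a normalized signal for each gene, scaled by the authors according to its name. Its values were whole multiples of 1 step (100% within 0.05 reads), from which reads were recovered for an alternative fit. The submitters' processing notes name HISAT2, SAMtools, GATK, featureCounts and edgeR, but the sources used here give neither their settings, nor the use of strand, nor the genome build. Per the labels' protocols, RNA was extracted with an RNeasy kit and libraries were made with a TruSeq RNA kit.

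Pairs were found from the positions in the count table, and bases outside other models were counted against all its genes. Counts were tested with edgeR 4.0.16 (R 4.3.3; TMM factors, filterByExpr with a minimum count of 10, glmQLFit and glmQLFTest) in 1 fit of 6 libraries by tissue. 34296 genes passed, 3 residual degrees of freedom remained, and the common biological coefficient of variation was 0.162. P-values were adjusted over all genes tested. Within-pair log2 ratios were tested with limma 3.58.1 (prior count 2, eBayes with trend) over 20211 adjacent pairs. CPM were scaled with TMM factors to the total of the count table. A fold against a tissue with 0 reads uses 3 reads over both libraries, or over the library that remains where 1 is left out. It is a lower bound that covers counting error only and takes reads as independent, as do the exact intervals. Low counts of named genes were mostly even, so reads may have been counted in pairs, which was not tested. If they were, the bounds are too high and the intervals too narrow. The scripts were tested on simulated data.

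Genes and pairs were named by rule. These were, per comparison, the 2 called members with the largest rise and the 2 with the largest fall at a mean of at least 50 CPM and no overlap between tissues, 2 pairs with the largest ratio shift each way at 10 CPM, and 2 with the largest opposite changes at 5 CPM. The 3 pairs most abundant on both sides by mean CPM, and the longest and shortest overlap, were added. The members, comparison classes and rules were chosen with earlier results of these data known. No sequences are shown, since no genome of this build was used here. Python 3.11.15, pandas 2.3.3, NumPy 2.4.6, SciPy 1.17.1 and DESeq2 1.42.0 were also used. Alternatives were other scaling factors, filters, prior counts, DESeq2, recovered reads, a replicate block, stricter pair definitions and leaving out each library.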

Additional observations from a re-analysis of the deposited data

How the results depend on the processing

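Counts of called members and pairs stayed within 1.5 times the main count, apart from fits that left out a library, with relative log expression or upper quartile factors, DESeq2, no filter, a minimum count of 30, prior counts of 0.5 and 5, recovered reads, overlaps of at least 100 bases, no pair with another overlapping model, and at least 500 bases outside other models in each gene (chosen after seeing the data). The share of reads between silique and seedling reversed to -0.0497 points without pairs that overlap another model. Over fits that left out 1 library each, in which a tissue with a lone library is assumed to vary like the others, members higher in flower bud than seedling numbered 699 to 1182 and lower 788 to 841, pairs in the same direction 95 to 167, in opposite directions 89 to 165, and with a shifted ratio 449 to 1056. For silique against seedling these ranges were 532 to 954, 499 to 657, 50 to 124, 35 to 103 and 285 to 942. For silique against flower bud they were 304 to 563, 281 to 582, 16 to 48, 11 to 51 and 146 to 674. The read share differed by 0.314 to 0.784, -0.0367 to 0.434 and -0.431 to -0.270 points. In these fits same-direction pairs outnumbered opposite ones in both comparisons with seedling, and the order varied for silique against flower bud. The cause of these moves was not tested, beyond the smaller number of libraries.

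Same-numbered deviations correlated between tissues at -0.0167, 0.00383 and -0.0266. With 2 libraries per tissue these values cannot show whether replicate numbers paired the samples, and the labels do not say so. With a replicate block, 962 members were higher and 815 lower in flower bud than seedling with 781 ratio shifts, 141 same-direction and 125 opposite pairs. The values were 682, 624, 625, 88 and 61 for silique against seedling and 458, 446, 397, 30 and 30 for silique against flower bud. All 432 values of single named genes and pairs kept their direction and side of the threshold, and folds that moved by over 1.5 times without a library are given beside them. These values do not cover the fold of every partner, and such moves of partners are not all given. Genes with few bases outside their partner had few reads, which limits what their counts can show.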
